A study of Homo sapiens with 4 samples.

Results

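The acyl-CoA desaturases examined here were the 6 genes SCD, SCD5, FADS1, FADS2, FADS3 and FADS6, taken by gene symbol, and all 6 were among the 25343 symbols listed for every library. They were measured by RNA-seq of total RNA in 4 cultures of human hepatocellular carcinoma cells, with 1 library per group. The groups were Huh7 cells carrying a short hairpin RNA against SCD (named shSCD1#13 in the labels), Huh7 cells carrying a non-target control (NTC), and the same pair in PLC/PRF/5 cells. The hairpins were delivered by lentivirus and the transduced cells, controls included, were selected with puromycin and grown in high-glucose DMEM with serum. A single hairpin was used, so an effect of SCD loss and an effect of that hairpin on other transcripts cannot be told apart.

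Acyl-CoA desaturases are membrane enzymes of the endoplasmic reticulum that place a double bond in a fatty acyl chain, using oxygen and electrons passed from NADH or NADPH through cytochrome b5 reductase and cytochrome b5. SCD, which the labels call SCD1, makes oleate and palmitoleate from saturated chains, and SCD5 is the second human stearoyl-CoA desaturase. FADS2 catalyses the first and rate-limiting desaturation in making long-chain polyunsaturated fatty acids from dietary precursors and can also desaturate palmitate to sapienate. FADS1 adds the later double bond that yields arachidonic and eicosapentaenoic acid. FADS3 acts on the sphingoid base of ceramides. In hepatocytes SCD, FADS1 and FADS2 are well known targets of the lipogenic transcription factor SREBP-1.

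The promoters of 4 of these genes are shown first, since SCD was the target of the hairpin, SCD5 is its closest relative, and FADS1 and FADS2 are the other members that were below their controls in both lines. Each runs 5′ to 3′ on the gene's own strand, covers 250 bases before to 50 bases after the annotated start, and comes from RefSeq on GRCh38.p14, another build than the hg19 named for the authors' processing. Capitals mark the CCAAT box, the core of NF-Y sites, on either strand, and the cAMP response element TGACGTCA. SCD lies at chr10:100346983-100347282 on the plus strand, SCD5 at chr4:82798747-82799046 on the minus strand, FADS1 at chr11:61816954-61817253 on the minus strand and the FADS2 window shown at chr11:61816154-61816453 on the plus strand.
SCD: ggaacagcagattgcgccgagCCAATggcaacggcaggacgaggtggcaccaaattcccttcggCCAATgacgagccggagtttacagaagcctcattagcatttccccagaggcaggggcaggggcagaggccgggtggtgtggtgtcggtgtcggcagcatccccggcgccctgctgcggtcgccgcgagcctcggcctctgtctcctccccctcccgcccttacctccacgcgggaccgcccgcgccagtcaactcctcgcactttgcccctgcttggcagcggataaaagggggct
SCD5: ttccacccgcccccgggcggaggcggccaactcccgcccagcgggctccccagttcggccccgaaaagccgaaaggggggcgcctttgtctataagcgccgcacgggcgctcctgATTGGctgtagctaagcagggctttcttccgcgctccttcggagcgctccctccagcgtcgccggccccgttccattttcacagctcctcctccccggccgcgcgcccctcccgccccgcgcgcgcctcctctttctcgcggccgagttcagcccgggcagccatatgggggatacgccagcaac
FADS1: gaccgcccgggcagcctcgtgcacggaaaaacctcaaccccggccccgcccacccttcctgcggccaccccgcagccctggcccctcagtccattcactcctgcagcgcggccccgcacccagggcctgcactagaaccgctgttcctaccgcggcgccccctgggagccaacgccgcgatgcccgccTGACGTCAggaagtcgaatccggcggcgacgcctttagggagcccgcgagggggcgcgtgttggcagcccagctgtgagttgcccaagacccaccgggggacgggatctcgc
FADS2: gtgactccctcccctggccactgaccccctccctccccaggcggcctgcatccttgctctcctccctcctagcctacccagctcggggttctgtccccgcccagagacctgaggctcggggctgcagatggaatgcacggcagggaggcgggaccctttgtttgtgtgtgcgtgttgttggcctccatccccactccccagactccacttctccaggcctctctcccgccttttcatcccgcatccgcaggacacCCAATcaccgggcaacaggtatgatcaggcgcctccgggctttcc

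Of the 6 genes, 5 had a RefSeq promoter in the table used, in 6 windows, since FADS2 has a pair of annotated starts there. The SCD window held 2 CCAAT boxes, starting 229 and 186 bases before the start, and 10.8% of 35116 promoters of this length held 2 or more. The FADS3 window also held 2, the SCD5 window 1 and the FADS2 window shown 1, whereas the FADS1 window and the other FADS2 window held 0. The FADS3 boxes started 151 and 123 bases before the start and the SCD5 box 135 bases before. The FADS2 box lay after its annotated start, by 5 bases. A CCAAT box on either strand was present in 34.6% of all promoters. The FADS1 window held the palindrome TGACGTCA 62 bases before its start, a motif found in 1.85% of promoters and looked for only after this sequence had been read. The GC box GGGCGG was present in 45.0% of all promoters and occurred 2 times in SCD, 4 times in SCD5, 2 times in FADS1, 1 time in the FADS2 window shown and 5 times in FADS3. The consensus sterol regulatory element, the E box CACGTG and the consensus DR4 repeat bound by LXR had no match in any of the 6 windows, against 0.0456%, 7.26% and 0.0199% of all promoters. All 6 motifs were searched on both strands, and no 2 matches in the members' windows overlapped.

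The annotated starts of FADS1 and FADS2 face each other. The FADS2 starts lie 599 and 800 bases inside the stretch transcribed as FADS1, on the opposite strand, and in GENCODE 29 the genes have 490 exon bases in common, 4.79% of those of FADS1. The strand setting of the authors' counting is not given in the sources used here, so reads from that stretch cannot be told apart between the genes. For SCD, 12.6% of the 31-base words of its longest transcript also occur in other genes, most of them in AC126365.1 and the SCD pseudogene SCDP1, neither of which is a symbol of these tables. The share was 7.33% for SCD5, 2.65% for FADS1, 0% for FADS2, 2.80% for FADS3 and 5.69% for FADS6. Each share is of the longest transcript only. Over all its exons, FADS2 has 49 bases in common with FEN1 on the same strand, besides the stretch in common with FADS1.

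Between 17405 and 17931 symbols had a TPM above 0, a level per transcript length that is set to the same total in each library. The sequencing depth cannot be read from such values, so no counting interval is given. Of 10 hepatocyte markers, all were at 1 TPM or more in both Huh7 libraries and 9 in both PLC/PRF/5 libraries, where TTR, the thyroxine carrier transthyretin, was at 0.16 TPM in the knockdown and 0.41 TPM in the control. Their summed level was 28048 TPM in the knockdown and 30886 TPM in the control of Huh7, and 3321 TPM in the knockdown and 4941 TPM in the control of PLC/PRF/5. The Huh7 sums hold opposite differences of their largest members. ALB was at 10479 TPM in the knockdown and 6498 TPM in the control there, and AFP at 10302 TPM and 15421 TPM. Of the 4 endothelial markers 1 reached 1 TPM in each library, PECAM1, and KDR was listed at 0 in all 4. Of the 6 fibroblast markers 3 did in each Huh7 library, 0 in the PLC/PRF/5 knockdown and 1 in the PLC/PRF/5 control, with ACTA2 listed at 0 in all 4 libraries. Their summed level was 17.55 TPM in the knockdown and 45.0 TPM in the control of Huh7, and 1.78 TPM in the knockdown and 3.24 TPM in the control of PLC/PRF/5. The 5 cholangiocyte markers summed to 829 TPM in the knockdown and 496 TPM in the control of Huh7, and to 48.0 and 40.4 TPM in those of PLC/PRF/5. Of the 4 leukocyte markers, LYZ stood at 1008 to 2600 TPM and CD68 at 8.76 to 27.0 TPM, while PTPRC and CD3E stayed under 1 TPM in every library. The part of these differences in the results below was not tested.

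SCD, the target of the hairpin, was lower with the hairpin in both lines. It stood at 137 TPM in the Huh7 knockdown and 1755 TPM in the Huh7 control, so the knockdown library kept 7.81% of the control level. PLC/PRF/5 held 178 TPM in the knockdown and 1111 TPM in the control, a remaining share of 16.0%. The log2 fold changes of TPM + 1 were -3.67 and -2.64, the second lowest of 13485 genes in Huh7 and rank 8 from the lowest of 13057 in PLC/PRF/5. Both knockdown levels lay below both control levels, and the knockdown libraries still held SCD above 92.5% of the detected genes in Huh7 and above 94.4% in PLC/PRF/5. With 1 library per arm, the difference within a line has no replicate check. Across both lines limma, with the line as a block, gave SCD a mean log2 fold change of -3.15 ± 0.25 (standard error), the lowest mean of the 13813 genes fitted, and an adjusted p of 0.128 after Benjamini-Hochberg adjustment, which did not pass 0.05.

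**Figure D1:**
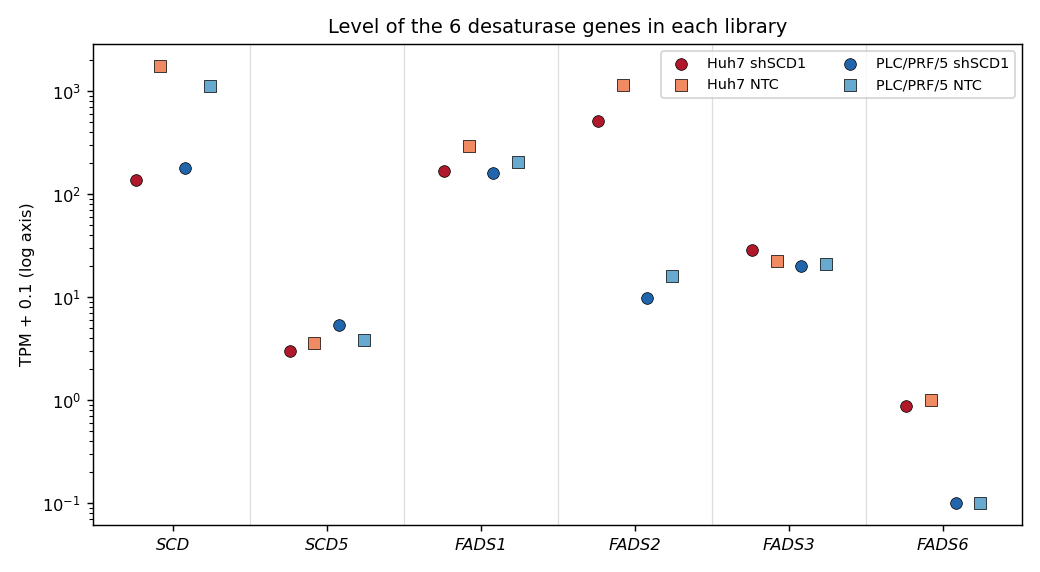
Level of each desaturase gene in each library as TPM + 0.1 on a log axis, with circles for shSCD1 and squares for NTC libraries, dark red and orange for Huh7 and dark and light blue for PLC/PRF/5, and 1 library per point. SCD is lower in both knockdown libraries, FADS2 separates the lines at every point, and FADS6 is listed at 0 in both PLC/PRF/5 libraries.

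SCD5 stayed a minor transcript in every library. It was at 2.86 TPM in the knockdown and 3.51 TPM in the control of Huh7, and at 5.28 TPM in the knockdown and 3.71 TPM in the control of PLC/PRF/5. The log2 fold changes were -0.22 and 0.42, and the mean over the lines of 0.10 had a standard error of 0.23 (limma adjusted p = 0.849). SCD transcripts outnumbered those of SCD5 by 47.9 to 1 in the knockdown and 500 to 1 in the control of Huh7, and by 33.7 to 1 in the knockdown and 299 to 1 in the control of PLC/PRF/5. In TPM, SCD5 differed by -0.65 in Huh7 and by 1.57 in PLC/PRF/5, beside SCD differences of -1618 and -933. SCD therefore remained the more abundant stearoyl-CoA desaturase transcript in all 4 libraries, knockdowns included.

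FADS2 was also below its control in both lines. It was at 517 TPM in the knockdown and 1147 TPM in the control of Huh7, which is 45.0% of the control level. In PLC/PRF/5 it was at 9.67 TPM in the knockdown and 15.9 TPM in the control, or 60.8%. The log2 fold changes of -1.15 and -0.66 left 1.05% of genes lower in Huh7 and 3.33% in PLC/PRF/5. The limma mean over the lines was -0.91 ± 0.14 (standard error) and missed the threshold (adjusted p = 0.147). All values of PLC/PRF/5 lay under all values of Huh7, so the arms overlap when the lines are put together and separate only within a line.

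FADS1 was below its control in both lines as well, by less. It was at 168 TPM in the knockdown and 294 TPM in the control of Huh7, and at 161 TPM in the knockdown and 205 TPM in the control of PLC/PRF/5. Both knockdown values lay below both control values, as for SCD. The knockdown libraries kept 57.2% and 78.3% of their controls, with log2 fold changes of -0.80 and -0.35. The limma mean of -0.58 ± 0.13 (standard error) missed it too (adjusted p = 0.182).

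FADS3 and FADS6 gave no common difference. FADS3 was at 28.4 TPM in the knockdown and 22.4 TPM in the control of Huh7, and at 20.1 TPM in the knockdown and 20.6 TPM in the control of PLC/PRF/5. Its log2 fold changes were 0.33 and -0.03, with a limma mean of 0.15 ± 0.15 (standard error, adjusted p = 0.613). FADS6 was at 0.77 TPM in the knockdown and 0.89 TPM in the control of Huh7 and was listed at 0 in both PLC/PRF/5 libraries. It reached 1 TPM in 0 of the 4 libraries and did not enter the fit, so the fit covered 5 of the 6 genes.

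At the size rule of at least 2-fold, 2 of the 5 desaturases with 1 TPM or more in Huh7 were lower, SCD and FADS2, and 0 were higher, where 1.54% of 13485 genes were lower and 3.1% higher (4.63% in all). In PLC/PRF/5, 1 of 5, SCD, was lower and 0 were higher, where 1.12% of 13057 genes were lower and 1.72% higher (2.84% in all). SCD is the hairpin's target and is part of both counts. SCD, FADS1 and FADS2 were lower in both lines, as were 22.4% of the 12064 genes at 1 TPM or more in both, while SCD5 and FADS3 had opposite signs, as did 30.96% of those genes. The median over the 5 genes, the target SCD included, was -0.80 in Huh7 and -0.35 in PLC/PRF/5, beside 0.08 and 0.10 over all genes. In the limma fit across both lines 0 of the 5 passed at an adjusted p of 0.05, where 1 of 13813 genes, or 0.00724%, did so, on the lower side. At an unadjusted p under 0.05 in that fit, SCD, FADS2 and FADS1 were lower, where 5.24% of genes were lower, and 0 of the 5 were higher, where 12.7% were (18% in all). Nothing in the labels says that the libraries came from separate experiments. The fit has 1 residual degree of freedom per gene, beside 3.71 prior degrees of freedom from the variance trend over all genes. Its standard errors and p-values are therefore moderated. They rest in part on how alike the lines moved for a gene and in larger part on that trend.

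Median-ratio scaling of the libraries shifted log2 fold changes by about -0.10 in Huh7 and -0.15 in PLC/PRF/5. Relative to that shift, no desaturase changed sign within a line. SCD stood at -3.77 and -2.78, FADS2 at -1.25 and -0.80, FADS1 at -0.90 and -0.50, SCD5 at -0.30 and 0.30 and FADS3 at 0.24 and -0.17 in Huh7 and PLC/PRF/5.

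**Figure D2:**
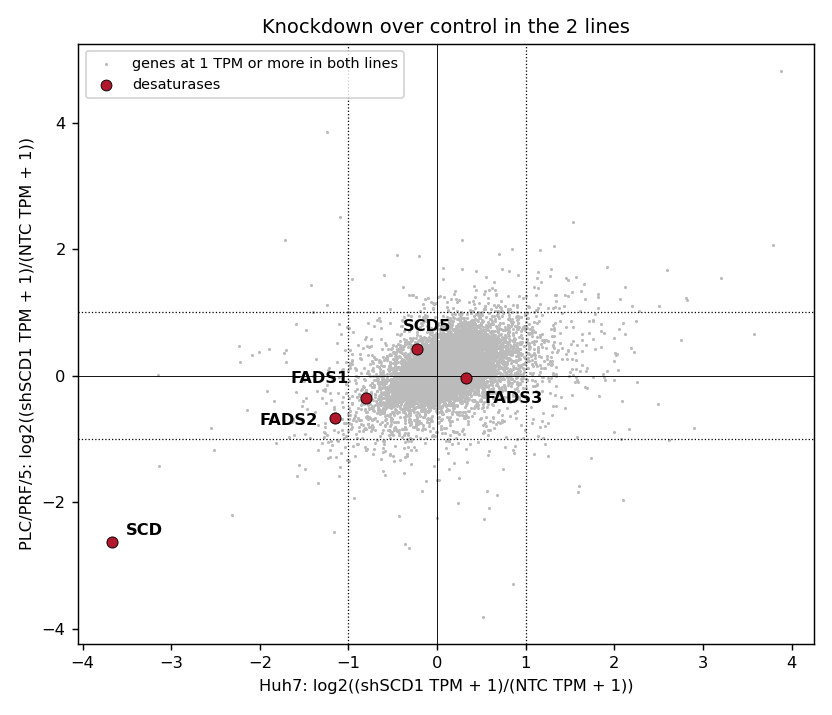
Log2 fold change of TPM + 1, knockdown over control, in Huh7 (x axis) and PLC/PRF/5 (y axis) for the 12064 genes with 1 TPM or more in at least 1 library of each line (grey) and the 5 desaturases among them (red), with dotted lines at a 2-fold difference. SCD lies far to the lower left at -3.67 and -2.64, FADS2 and FADS1 are below 0 on both axes, and SCD5 and FADS3 fall in opposite quadrants.

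The mix of desaturase transcripts differed between arms and lines. The 6 genes summed to 854 TPM in the knockdown and 3223 TPM in the control of Huh7, and to 374 TPM in the knockdown and 1356 TPM in the control of PLC/PRF/5. The control sum was 3.77 times the knockdown sum in Huh7 and 3.63 times in PLC/PRF/5. SCD made up 68.3% of the difference of 2369 TPM in Huh7 and 94.9% of the difference of 983 TPM in PLC/PRF/5. Without SCD, the sum was 717 TPM in the knockdown and 1468 TPM in the control of Huh7, and 196 TPM in the knockdown and 245 TPM in the control of PLC/PRF/5.

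The order of the genes also differed. In the Huh7 knockdown FADS2 came first with 60.5% of the summed TPM, followed by FADS1 with 19.7% and SCD with 16.0%, whereas in the Huh7 control SCD came first with 54.5%, followed by FADS2 with 35.6% and FADS1 with 9.12%. In the PLC/PRF/5 knockdown SCD held 47.6% and FADS1 43.0%, and in the PLC/PRF/5 control SCD held 81.9% and FADS1 15.1%. The FADS2 to FADS1 ratio was 3.07 in the knockdown and 3.90 in the control of Huh7, and 0.0602 in the knockdown and 0.0775 in the control of PLC/PRF/5. With single libraries there is no spread to say which neighbours in these orders differ. SCD and FADS1 in the PLC/PRF/5 knockdown were the closest of the abundant genes, at a ratio of 1.11.

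**Figure D3:**
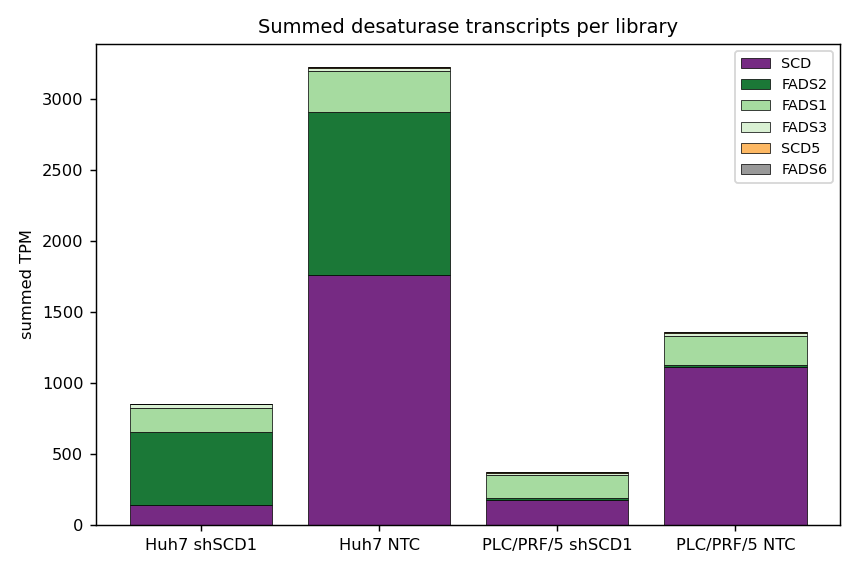
Summed TPM of the 6 desaturase genes in each library, with 1 bar per library stacked by gene and starting at 0. The bars reach 854 and 3223 TPM in the Huh7 knockdown and control and 374 and 1356 TPM in those of PLC/PRF/5, and FADS2 is a visible part of the Huh7 bars only.

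Between the lines, FADS2 was higher in Huh7. Its level in Huh7 was 53.4 times that of PLC/PRF/5 among the knockdown libraries and 72.1 times among the controls. In the same limma fit, the Huh7 over PLC/PRF/5 difference was 5.84 on the log2 scale with a standard error of 0.14 and passed (adjusted p = 1.5e-04), with Huh7 higher in both arms. It ranked 54 from the highest of 13813 genes. The lines differ widely, since 28.3% of genes passed as higher and 31.5% as lower in Huh7 (59.8% in all), and of the 5 desaturases fitted 1 passed as higher and 0 as lower. Such a p-value compares the line difference between the arms, and no replicate culture enters it.

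The other desaturases did not pass between the lines. FADS1 had a line difference of 0.29 ± 0.13 (standard error, limma adjusted p = 0.118), FADS3 of 0.30 ± 0.15 (adjusted p = 0.150) and SCD5 of -0.38 ± 0.23 (adjusted p = 0.213). SCD had a line difference of 0.14 ± 0.25 (limma adjusted p = 0.645), which averages opposite signs. Among knockdown libraries SCD was lower in Huh7, with a log2 difference of -0.37, and among controls it was higher there, with 0.66. Whether the lines responded to the hairpin to a different extent could not be tested with single libraries. FADS6 was above 0 in the Huh7 libraries only, under 1 TPM in both.

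FADS1, FADS2 and FADS3 lie next to each other on chromosome 11, and the line difference of FADS2 stood apart from that of its neighbours. Over the 10 nearest protein-coding genes, 5 on each side with FADS1 and FADS3 among them, the line coefficient in limma ranged from -1.04 for RAB3IL1, a guanine nucleotide exchange factor gene, to 1.66 for DAGLA, the diacylglycerol lipase that makes an endocannabinoid. FEN1, a flap endonuclease of DNA replication that borders the cluster, was at 224 and 202 TPM in the knockdown and control of Huh7 and at 173 and 154 TPM in those of PLC/PRF/5. MYRF, a membrane-bound transcription factor gene, had a line coefficient of 1.56 and the iron store gene FTH1 of 1.59, both passing as higher in Huh7 (limma adjusted p = 0.0021 and 5.5e-04). Of the 9 genes of the list of cluster neighbours, 5 passed as higher in Huh7 and 1 as lower, where 28.3% and 31.5% of all genes did. Whether the lines differ in copy number there was not tested.

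**Figure D4:**
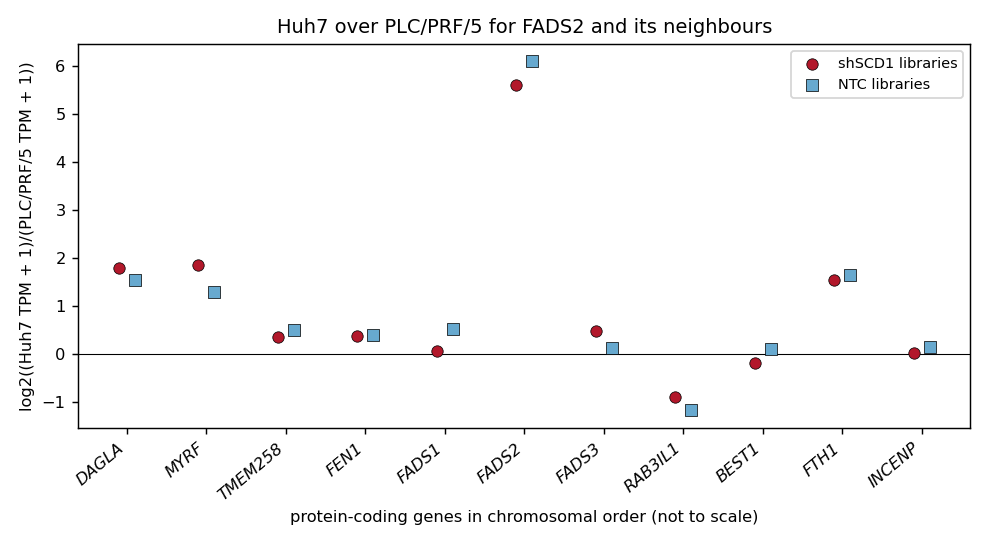
Log2 ratio of TPM + 1, Huh7 over PLC/PRF/5, for FADS2 and its 10 nearest protein-coding neighbours in chromosomal order, with circles for the shSCD1 libraries and squares for the NTC libraries. FADS2 stands at 5.60 and 6.09, and its neighbours lie between about -1.2 and 1.8.

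Genes most like each of the 3 lowered desaturases were taken by the smallest distance in 3 values, the fold change in each line and the difference between the control libraries. For FADS1 the nearest were SLC35A3, a nucleotide sugar transporter gene, at a distance of 0.04 on the log2 scale, then REEP2, TLE3, LOC100506603 and SOX13 at up to 0.21. For FADS2 they were SLC7A10, an amino acid transporter gene, at 0.45, then the antithrombin gene SERPINC1, APOA1, CSF3R and IGDCC3 at up to 0.88. All of these but APOA1 were under 1 TPM in both PLC/PRF/5 libraries, below the level for considering a gene in a line. Their fold changes in PLC/PRF/5 depend on the 1 added to each TPM, and that of IGDCC3 was 0.05, not lower. SLC7A10 was at 53.0 and 108 TPM in the knockdown and control of Huh7 and at 0.52 and 0.86 TPM in those of PLC/PRF/5. For SCD no gene was close, with NPTX2 the nearest at 1.91, followed by SPARC, SULT1A4, SLC44A2 and KNG1 at up to 2.55. The likeness rests on 4 libraries, and SULT1A4 shares most of its sequence with SULT1A3 and is uncertain.

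Genes that work with the desaturases were followed in 9 lists, 7 for the pathway and 2 for chromosomal neighbours, 104 genes in all. In limma across both lines 0 of the 90 that entered the fit passed, and at an unadjusted p under 0.05, 10 were higher and 8 lower, where 12.7% of all genes fitted were higher and 5.24% lower. Of all genes considered, 39.7% were lower in Huh7 and 36.5% in PLC/PRF/5. The counts of lower members given below without scaling stand beside these shares. After median-ratio scaling the median over all genes was -0.015 in Huh7 and -0.035 in PLC/PRF/5. More genes were then lower than higher in each line, and the counts after scaling stand beside that background. The lists and the genes in them were chosen with earlier results of these data known.

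The electron supply showed no 2-fold difference in TPM + 1. Of the 10 genes for cytochrome b5, its reductases and other lipid desaturases or hydroxylases, 8 were considered in Huh7 and 9 in PLC/PRF/5. In Huh7 5 were higher and 3 lower, and in PLC/PRF/5 6 were higher and 3 lower, with medians of 0.10 and 0.27. Over all genes 39.7% and 36.5% were lower. After median-ratio scaling 4 were lower in Huh7 and 3 in PLC/PRF/5, where more of all genes were then lower than higher in each line. CYB5R1, a cytochrome b5 reductase gene, was at 32.0 and 22.6 TPM in the knockdown and control of Huh7 and at 71.9 and 51.0 TPM in those of PLC/PRF/5. CYB5R4, another reductase gene, had log2 fold changes of -0.29 and -0.54, and CYB5R2 of -0.62 and -0.05. FA2H, the fatty acid hydroxylase, reached 1 TPM only in the PLC/PRF/5 knockdown, at 1.49 TPM beside 0.68 TPM in the control. Its log2 fold change of 0.57 there is under 2-fold only through the 1 added to each TPM.

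Elongation genes, whose products lengthen the chains that desaturases use or make, split within the list, with 7 of 12 lower in each line, beside 39.7% of all genes in Huh7 and 36.5% in PLC/PRF/5, and medians of -0.27 and -0.18. After median-ratio scaling 7 of 12 were again lower in each line, where more of all genes were then lower than higher. PTPLB and PTPLAD1, older symbols of the acyl-CoA dehydratase genes HACD2 and HACD3, were lower in both knockdown libraries. PTPLB was at 75.5 TPM in the knockdown and 148 TPM in the control of Huh7, and at 57.1 TPM in the knockdown and 101 TPM in the control of PLC/PRF/5, with a mean log2 fold change of -0.89 that did not pass (limma adjusted p = 0.129). PTPLAD1 had log2 fold changes of -0.53 and -0.41, ELOVL6, the elongase that turns palmitate into stearate, of -0.58 and -0.69, and ELOVL4 of -0.87 and -0.32. At an unadjusted p under 0.05, 5 of the 12 were lower and 3 higher, where 5.24% and 12.7% of all genes were.

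Genes supplying palmitate, the substrate chain, showed no 2-fold difference. Of 8 considered, 4 were lower in Huh7 and 3 in PLC/PRF/5, with 8 lower in Huh7 and 4 in PLC/PRF/5 after median-ratio scaling, and 0 reached 2-fold. FASN, fatty acid synthase, was at 545 TPM in the knockdown and 694 TPM in the control of Huh7, and at 401 TPM in the knockdown and 323 TPM in the control of PLC/PRF/5. ACLY, which makes cytosolic acetyl-CoA from citrate, had log2 fold changes of -0.15 and 0.19, ACSS2, which makes it from acetate, of -0.65 and 0.01, and the citrate carrier gene SLC25A1 of 0.02 and -0.32.

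Among 16 genes of the SREBP, LXR and ChREBP regulators, 1 reached 2-fold. INSIG1, which retains the SREBP escort protein in the endoplasmic reticulum, was at 126 TPM in the knockdown and 164 TPM in the control of Huh7, and at 175 TPM in the knockdown and 66.0 TPM in the control of PLC/PRF/5. SREBF1, the SREBP-1 gene, was at 49.6 and 61.1 TPM in the knockdown and control of Huh7 and at 77.7 and 67.9 TPM in those of PLC/PRF/5. PPARG, a lipogenic nuclear receptor gene, had log2 fold changes of 0.93 and 0.28, SCAP, the escort protein gene, of 0.32 and 0.36, and INSIG2 of -0.43 and -0.20. The list's medians were 0.01 and 0.11, and -0.08 and -0.03 after median-ratio scaling.

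Of the genes that place monounsaturated chains into esters, 6 of 9 were lower in Huh7, where 39.7% of all genes were, with a median of -0.32, and 5 of 8 in PLC/PRF/5, where 36.5% were, with -0.12. DGAT1, which makes triglyceride, was at 20.6 TPM in the knockdown and 49.5 TPM in the control of Huh7, the 1 gene of the list past 2-fold, and at 23.6 TPM in the knockdown and 22.0 TPM in the control of PLC/PRF/5. LPIN1, a phosphatidate phosphatase gene, had log2 fold changes of -0.32 and 0.96, GPAM, the mitochondrial glycerol phosphate acyltransferase gene, of -0.71 and -0.15, and SOAT2, a cholesterol acyltransferase gene, was at 14.3 TPM in the knockdown and 26.7 TPM in the control of Huh7 and at 0.03 TPM or less in PLC/PRF/5. After median-ratio scaling 7 of 8 were lower in PLC/PRF/5, where more of all genes were then lower than higher.

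Among genes that activate, release or oxidise polyunsaturated chains, 8 of 12 were lower in Huh7 and 9 of 15 in PLC/PRF/5. Over all genes 39.7% and 36.5% were lower. The list's medians were -0.13 and -0.05, and 0 of its genes were past 2-fold in TPM + 1. After median-ratio scaling 9 were lower and 3 higher in Huh7, and 10 lower and 4 higher in PLC/PRF/5. More of all genes were then lower than higher in each line. PLA2G4A, the phospholipase that frees arachidonate, was at 11.8 TPM in the knockdown and 20.2 TPM in the control of Huh7, and at 24.0 TPM in the knockdown and 35.3 TPM in the control of PLC/PRF/5. PTGS2, cyclooxygenase, was at 72.7 TPM in the knockdown and 48.0 TPM in the control of PLC/PRF/5 and under 1 TPM in Huh7. ACSL5, an acyl-CoA synthetase gene, had log2 fold changes of -0.54 and 0.83. The lipoxygenase gene ALOX15B was at 0.45 TPM in the knockdown and 1.76 TPM in the control of Huh7 and at 0.02 TPM or less in PLC/PRF/5. Its log2 fold change of -0.93 in Huh7 is under 2-fold only through the 1 added to each TPM. The peroxisomal genes that shorten very long chains included ACAA1, a thiolase gene, at 230 TPM in the knockdown and 109 TPM in the control of Huh7, and at 53.4 TPM in the knockdown and 34.2 TPM in the control of PLC/PRF/5. PEX7, an import receptor gene, had log2 fold changes of 0.30 and 0.20, and PEX5, another one, of 0.05 and -0.38. Of the 8 peroxisomal genes considered in each line, 1 was lower in Huh7 and 3 in PLC/PRF/5, beside 39.7% and 36.5% of all genes. After median-ratio scaling 3 and 5 were lower, and more of all genes were then lower than higher in each line.

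**Figure D5:**
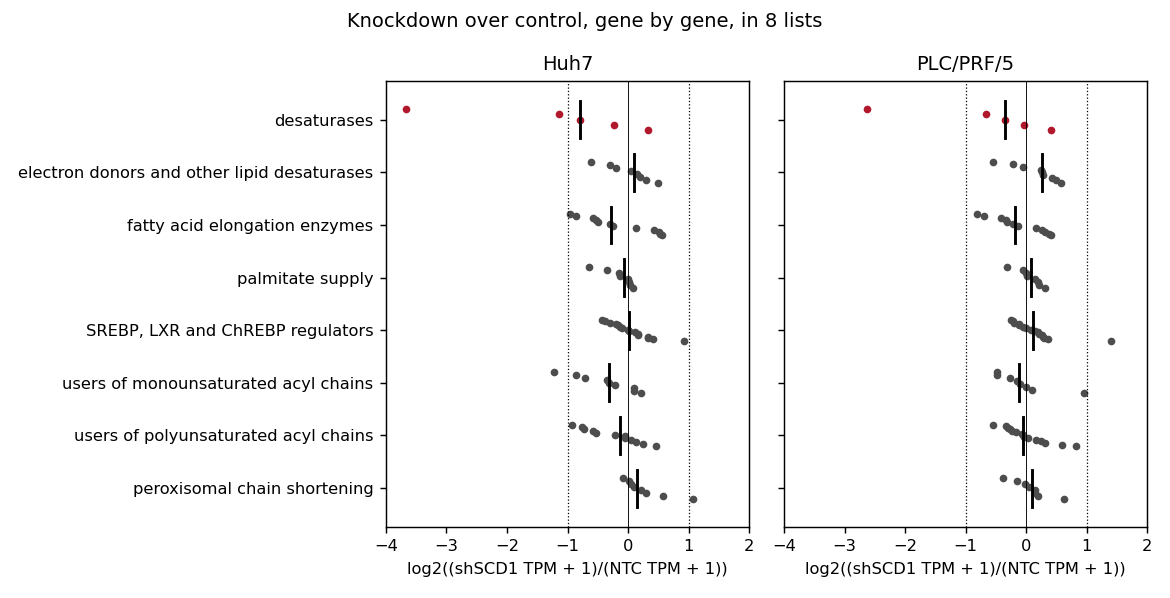
Log2 fold change of TPM + 1, knockdown over control, for each gene of 8 lists (rows) in Huh7 (left) and PLC/PRF/5 (right), with 1 point per gene at 1 TPM or more in that line, a bar at the list's median and dotted lines at 2-fold. The desaturase row, which includes the hairpin's target SCD, has the lowest median, -0.80 in Huh7 and -0.35 in PLC/PRF/5. Medians without SCD were not computed. Every row, the desaturases included, has genes on both sides of 0.

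Neighbours of SCD on chromosome 10 did not share its difference. Of the 8 listed, 6 were considered in each line, 4 of them lower in Huh7 and 3 in PLC/PRF/5 (5 and 4 after median-ratio scaling). Over all genes 39.7% and 36.5% were lower without scaling. The list's medians were -0.03 and 0.02, with 0 past 2-fold. The kinase gene CHUK was at 54.6 TPM in the knockdown and 54.9 TPM in the control of Huh7, and at 64.9 TPM in the knockdown and 70.4 TPM in the control of PLC/PRF/5. HIF1AN, an asparagine hydroxylase gene, had log2 fold changes of 0.37 and 0.23, CWF19L1 of -0.11 and -0.24 and SEC31B of -0.06 and 0.57. In the FADS cluster, SYT7 (0.88 and -1.11), BEST1 (0.64 and 0.94, from under 1 TPM in the controls), FTH1 (-0.43 and -0.32) and DAGLA (0.44 and 0.20) were the 4 neighbours with the largest mean absolute log2 fold change over the lines.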

How the data were processed

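RNA was extracted with TRIzol and libraries were made with standard Illumina protocols, per the labels' protocols. The authors deposited 1 table per library with TPM by gene symbol, rounded to 2 decimals. Tools credited in the submitters' processing notes were cutadapt and RSEM 1.2.21, on hg19. The sources used here do not give the aligner, annotation or strand setting. RSEM divides reads that match several genes by a likelihood model. TPM sets every library to the same total and holds no depth, so precision from counting could not be computed.

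Samples were grouped by title. Log2 fold changes were log2((knockdown TPM + 1)/(control TPM + 1)), which understates changes of low genes. Within a line, genes with 1 TPM or more in at least 1 of the pair's libraries were considered, with a 2-fold size rule and no test. Across lines, limma 3.58.1 in R 4.3.3 was fitted to 13813 genes that reached 1 TPM in 2 or more libraries, with line and arm as terms, trended empirical Bayes (1 residual and 3.71 prior degrees of freedom) and two-sided Benjamini-Hochberg adjusted p-values at 0.05. The fit was tested on simulated data. The line block pairs the libraries because each line gave both arms. Shared words and overlaps came from GENCODE 29, promoters and gene order from RefSeq on GRCh38.p14, and tables and plots were made with Python 3.11.15 and matplotlib 3.10.9.

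Named genes were the 6 desaturases, the 4 members per list with the largest mean absolute fold change, and the 5 genes nearest in pattern to SCD, FADS1 and FADS2. A gene that this rule names is not reported here. SREBF1, MYRF, FEN1, RAB3IL1, the SCD5 neighbours and the cAMP response element fall outside that rule and were chosen after values or sequences were seen. Members and lists were chosen with earlier results of these data known. Alternatives were pseudocounts of 0.1 and 5, TPM filters of 5 or none, median-ratio scaling, no variance trend, fits without the line or the arm term, and leaving out a line or an arm.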

Additional observations from a re-analysis of the deposited data

Results flagged for a closer look

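In 13 of the 42 genes examined, the knockdown library was lower than its control in one line and higher in the other; these differences between lines were not tested, since each rests on 1 library per group. Over the 12064 genes at 1 TPM or more in both lines, 30.96% had opposite signs, so the share among the examined genes is near that of all genes. The bases differ, since FADS6, FA2H, SOAT2, ALOX15B and PTGS2 are among the 42 but did not reach 1 TPM in both lines. They could not be counted as opposite. Values are the log2 fold change in Huh7 minus that in PLC/PRF/5. Among the desaturases, SCD5 had a difference of -0.64 and FADS3 of 0.36. Among the genes of palmitate supply and its regulation it was -0.66 for ACSS2, -0.66 for FASN, -0.35 for ACLY, 0.34 for SLC25A1 and -1.78 for INSIG1. Among users of the products it was -1.33 for DGAT1, -1.29 for LPIN1, -1.36 for ACSL5 and 0.43 for the peroxisomal import gene PEX5. Among chromosomal neighbours it was 1.99 for SYT7 and -0.64 for SEC31B. After median-ratio scaling 9 of the 13 still had opposite signs; ACSS2, SLC25A1, DGAT1 and PEX5 did not. No group had enough samples for a test of single outlying libraries.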

How the results depend on the processing

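The desaturases at least 2-fold different (2 in Huh7, 1 in PLC/PRF/5) and those passing across lines (0) stayed at these counts under every alternative run. FADS2 between the lines passed under all 8 settings (adjusted p from 8.6e-05 to 0.012), and without a filter FADS6, listed at 0 in both PLC/PRF/5 libraries, passed too, making 2. Across lines, SCD's adjusted p ranged from 0.0873 with a pseudocount of 0.1 to 1 without the line block, that of FADS2 from 0.111 to 1 and that of FADS1 from 0.152 to 1. Without the block, the difference between lines stays in the residual; all genes passing numbered 0 there, as with a pseudocount of 5, without a filter and without the variance trend, and 2 with a pseudocount of 0.1, against 1. The SCD5 mean across lines turned to -0.0025 with median-ratio scaling and was -0.22 in Huh7 alone and 0.42 in PLC/PRF/5 alone; that of FADS3 was -0.032 in PLC/PRF/5 alone and 0.33 in Huh7 alone. The SCD line difference was -0.37 among knockdown and 0.66 among control libraries. All genes at least 2-fold lower numbered 370 in Huh7 and 248 in PLC/PRF/5 with a pseudocount of 0.1, and 92 and 55 with 5; those higher numbered 695 and 480, and 155 and 68. Median-ratio scaling gave 224 lower in PLC/PRF/5, where the higher share was 40.7% against 60.6%. List genes past 2-fold numbered 5 in each line with a pseudocount of 0.1, against 2 in each, and 1 in PLC/PRF/5 with 5. The cause of these shifts was not tested. The line is the only pairing; no replicate numbers exist. Depth is unknown, so low genes such as FADS6 and SCD5 have no stated precision.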

Other observations

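Of the 10 protein-coding genes nearest to SCD5 on chromosome 4, 5 on each side, 9 were at 1 TPM or more in both lines, and 7 of these were, like SCD5, lower in the Huh7 knockdown and higher in the PLC/PRF/5 knockdown than in their controls. Over all genes at 1 TPM or more in both lines the share with these signs was 16.9%. The 7 were HNRNPD and HNRNPDL, which encode RNA-binding proteins, the methionine salvage gene ENOPH1, TMEM150C, THAP9, the cell cycle repressor complex gene LIN54 and the COP9 signalosome gene COPS4. Their log2 fold changes were small, between -0.30 and -0.01 in Huh7 and between 0.05 and 0.33 in PLC/PRF/5. After median-ratio scaling 3 of the 9 had these signs, with 14.7% of all genes. SEC31A, a vesicle coat gene next to SCD5, was higher in both lines (0.16 and 0.61), and PLAC8 was lower in both (-1.84 and -0.40). The neighbourhood was examined after the SCD5 values were seen.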
